A study of Mus musculus with 18 samples.

Results

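The genes of cholesterol and fatty acid synthesis were followed in pancreatic cancer cell lines that differ in Mcu, the gene of the pore-forming subunit of the mitochondrial calcium uniporter. The set holds 36 genes chosen by symbol, out of 35642 symbols in the deposited gene table. It has a sterol branch of 23 genes and a fatty acid branch of 13 genes. RNA was measured by poly(A) sequencing in 18 libraries from 6 groups of 3, all of untreated cells. Both lines, 1151 and 2838, came from tumours of KPCY mice, so every group shares 1 genetic background, which includes a Cre-activated Trp53 R172H allele, Pdx1-Cre and a Yfp reporter at R26. Pdx1-Cre acts in the pancreatic epithelium.

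In line 1151, cells with Mcu deleted by Cre and carrying an empty vector (knockout, n = 3) were set against the same cells given MCU back (re-expressing, n = 3), with 2 µg/mL puromycin in both. In line 2838, CRISPR knockout clones 42 and 17 (3 libraries each) were set against Mcu wild-type clones 22 and 15, which carried an empty vector (3 libraries each). All cells were grown in DMEM with 10% fetal bovine serum, which brings its own lipid. Each 2838 clone is a single clone, so a difference between clones and a difference due to Mcu can be separated only over clones, 2 against 2. Lines 1151 and 2838 were run as batches 1 and 2, so line and batch cannot be told apart. Whether the replicates of a group are separate cultures is not stated, so p-values measure only the spread between these libraries, which may be technical.

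Cholesterol is built from acetyl-CoA through mevalonate, the isoprenoid diphosphates, squalene and lanosterol. The same cytosolic acetyl-CoA feeds fatty acid synthesis, whose product is then elongated and desaturated. The transcription factors SREBP-2 and SREBP-1, encoded by Srebf2 and Srebf1, bind promoters of genes in both branches. They are escorted out of the endoplasmic reticulum by SCAP when sterols are low and held there by the INSIG proteins when sterols are high. NF-Y and Sp1, which bind CCAAT and GC boxes, act beside the SREBPs at many of these promoters.

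Promoters were read for the 29 members that have an entry in the RefSeq promoter table (build GRCm38.p6), in windows that run 250 bases before to 50 bases after each start. The 7 members without an entry were Fdps, Fdft1, Sqle, Stard4, Scd1, Scd2 and Fads1. Each window was searched for 4 motifs on both strands. CCAAT was found in 24 of the 29 windows (82.8%), against 41.1% of the windows of all 27025 symbols, and GGGCGG in 23 of 29 (79.3%), against 38.2%. The 9-base sterol regulatory element TCACNCCAC was found only in Hmgcs1, 1 of 29 windows (3.45%), against 1.44% of all windows, and the palindrome TCACGTGA in none of the 29, against 1.12%. A match is only a run of letters, and a window without the letters says nothing about the factor. The 150 bases just upstream of the start are printed for 5 members that the results turn on: Hmgcs1 (chr13:119690201-119690350, plus strand) because it holds the sterol element, Pmvk (chr3:89454391-89454540, plus strand) and Mvd (chr8:122443423-122443572, minus strand) for consecutive sterol steps, and Fasn (chr11:120824548-120824697, minus strand) and Acly (chr11:100528001-100528150, minus strand) for the fatty acid genes that were higher in line 1151 where these sterol genes were lower. None of these windows overlaps an annotated exon. Each is written 5′ to 3′ on the gene's strand, and capitals mark a match of any of the 4 motifs on either strand (ATTGG and CCGCCC are the same boxes on the other strand).
Hmgcs1: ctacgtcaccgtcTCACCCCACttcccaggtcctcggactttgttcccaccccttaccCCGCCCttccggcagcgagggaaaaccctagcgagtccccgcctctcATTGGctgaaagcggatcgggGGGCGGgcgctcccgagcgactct
Pmvk: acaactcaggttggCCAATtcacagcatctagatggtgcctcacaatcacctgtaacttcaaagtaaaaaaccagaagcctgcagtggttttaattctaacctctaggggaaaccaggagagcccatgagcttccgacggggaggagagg
Mvd: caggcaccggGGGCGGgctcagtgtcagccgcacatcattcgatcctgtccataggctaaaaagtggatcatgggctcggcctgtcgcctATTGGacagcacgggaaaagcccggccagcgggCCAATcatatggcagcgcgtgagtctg
Fasn: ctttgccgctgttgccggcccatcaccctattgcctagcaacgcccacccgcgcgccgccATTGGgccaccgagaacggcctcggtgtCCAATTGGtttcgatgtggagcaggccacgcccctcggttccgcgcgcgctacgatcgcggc
Acly: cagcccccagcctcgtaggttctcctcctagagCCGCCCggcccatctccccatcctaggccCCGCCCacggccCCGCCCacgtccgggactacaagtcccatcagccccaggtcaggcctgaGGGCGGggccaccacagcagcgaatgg
In these 150 bases the first 4 hold CCAAT in at least 1 orientation. The printed bases of Acly hold GGGCGG alone, in 4 places, and its CCAAT lies elsewhere in the longer window that was counted above.

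Values are TPM, the number of transcripts of a gene relative to all transcripts of the library, which corrects for transcript length. Differences are of log2(TPM + 1), tested with limma. A gene is called changed at a Benjamini-Hochberg adjusted p under 0.05 over all genes with at least 1 TPM in 3 libraries. Of the 36 members, 35 stood above 1 TPM in all 18 libraries. Acacb, the mitochondrial-membrane acetyl-CoA carboxylase, did not pass that filter. No member passed only through the group in which it was high.

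Mcu RNA itself followed the labels in part of the study only. In line 1151, Mcu was measured at 15.0 ± 1.63 TPM in the knockout and 14.3 ± 1.06 TPM in the re-expressing libraries (SD, n = 3 each; log2 difference 0.07, SE 0.10, adjusted p = 0.581), so the RNA did not tell these arms apart. Clone 42 had 11.4 ± 0.888 TPM and clone 17 had 119 ± 4.79 TPM, against 83.3 ± 20.8 TPM in clone 22 and 75.2 ± 6.44 TPM in clone 15 (SD, n = 3 each), or 95.3 TPM in clone 22 without its replicate 3, a library described below. Clone 17, labelled knockout, thus carried more Mcu RNA than clone 15 (log2 difference 0.65, adjusted p = 0.0328 in limma). A small CRISPR edit need not remove the RNA, and whether the expression vector's RNA is counted under Mcu is not stated, so RNA does not check either label. "Knockout" below is the label's word.

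Epithelial marker RNA was high throughout, with a sum over 7 keratin and junction genes of 4443 to 6945 TPM across the 18 libraries. Krt8, Krt18 and Krt19 carried most of that sum. Epcam averaged 0.10 to 1.33 TPM over the 6 groups, and Cldn4 was under 1 TPM in all groups but the 1151 knockout, at 6.15 TPM. Between the arms of line 1151 the keratins went both ways, with Krt7 at 237 TPM in knockout and 39.1 TPM in re-expressing cells, and Krt19 at 385 TPM in knockout and 826 TPM in re-expressing cells. Markers of fibroblasts and islet cells summed to under 1 TPM in every library. The immune list summed to 1.37 to 6.33 TPM, with Cd68 as its 1 gene of 5 at or above 1 TPM. In the acinar list only the elastase gene Cela1 reached 1 TPM, and only in line 2838, where the list summed to 9.21 to 12.2 TPM in clone 42 and 11.5 to 14.2 TPM in clone 17, against 16.4 to 24.3 TPM in clone 22 and 21.7 to 28.8 TPM in clone 15. The endothelial list, with 1 of 4 genes (Kdr) at or above 1 TPM and Tie1 and Emcn at 0 in knockout cells, summed to 8.32 to 8.75 TPM in knockout and 0.793 to 0.971 TPM in re-expressing libraries of line 1151. The adipocyte list, in which only the lipid droplet gene Cidec reached 1 TPM, summed to 0.391 to 0.649 TPM in knockout and 8.78 to 10.8 TPM in re-expressing libraries. In line 2838 it summed to 23.6 to 29.2 TPM in clone 42 and 90.7 to 99.8 TPM in clone 17, against 31.4 to 47.3 TPM in clone 22 and 33.1 to 37.1 TPM in clone 15. The part of these levels in the members' results was not tested. In bulk RNA, fewer cells of a type and less RNA per cell cannot be told apart. Sequencing depth is unknown, because TPM keeps none.

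Replicate 3 of clone 22 stands apart from the other 2 libraries of that clone. Its upper quartile over all genes was 3.73 TPM, against 7.54 and 7.45 TPM in replicates 1 and 2. Over the 35 members its log2(TPM + 1) lay below the mean of replicates 1 and 2 by a median of -0.86, against -0.55 over 11162 protein-coding genes. The gap followed transcript length, with Spearman's rho of -0.62 over the 35 members and -0.65 over all 11162 genes, described without a test since genes of 1 library are not independent. The 18 members of 3464 bases or longer were all below, with a median of -1.22, and the 17 shorter ones had a median of -0.28. Scd2 had 534 TPM in that library against 1557 and 1457 TPM in the other 2, and Fdps had 1431 against 1105 and 1058 TPM. Counts of calls and clone-mean differences are therefore given with and without this library.

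**Figure D1:**
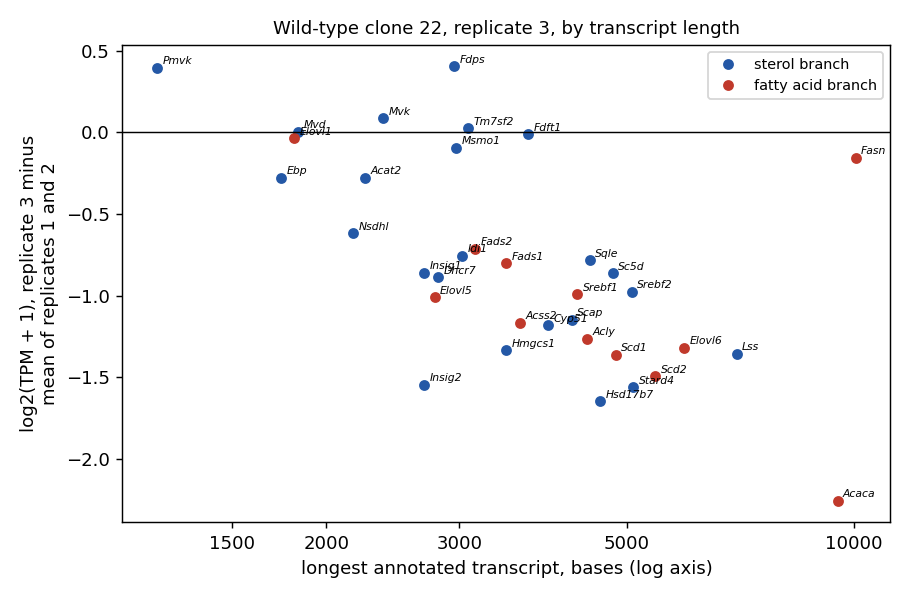
Difference in log2(TPM + 1) between replicate 3 of wild-type clone 22 and the mean of its replicates 1 and 2 (y axis) against the longest annotated transcript in bases (log x axis) for the 35 members. Points tend to fall further below 0 with length, and all 18 members of 3464 bases or more are negative. Fasn, the longest, stands at only -0.155.

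In line 1151 the sterol branch was lower in the knockout cells along nearly its whole length, while the fatty acid branch split. Of 35 members, 6 were called higher and 23 lower in knockout against re-expressing cells. That stands beside a background of 34.0% of all 11630 genes called higher and 27.0% called lower (61.0% in either direction). The members' median log2 difference was -0.56, against 0.05 over all genes tested. In the sterol branch 18 of 23 genes were lower and 2 higher, with a median of -0.62. In the fatty acid branch 5 of 12 tested genes were lower and 4 higher, with a median of -0.16. Summed over the 18 sterol enzymes, RNA was 1569 ± 67.7 TPM in knockout and 2566 ± 68.3 TPM in re-expressing libraries (SD, n = 3 each).

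**Figure D2:**
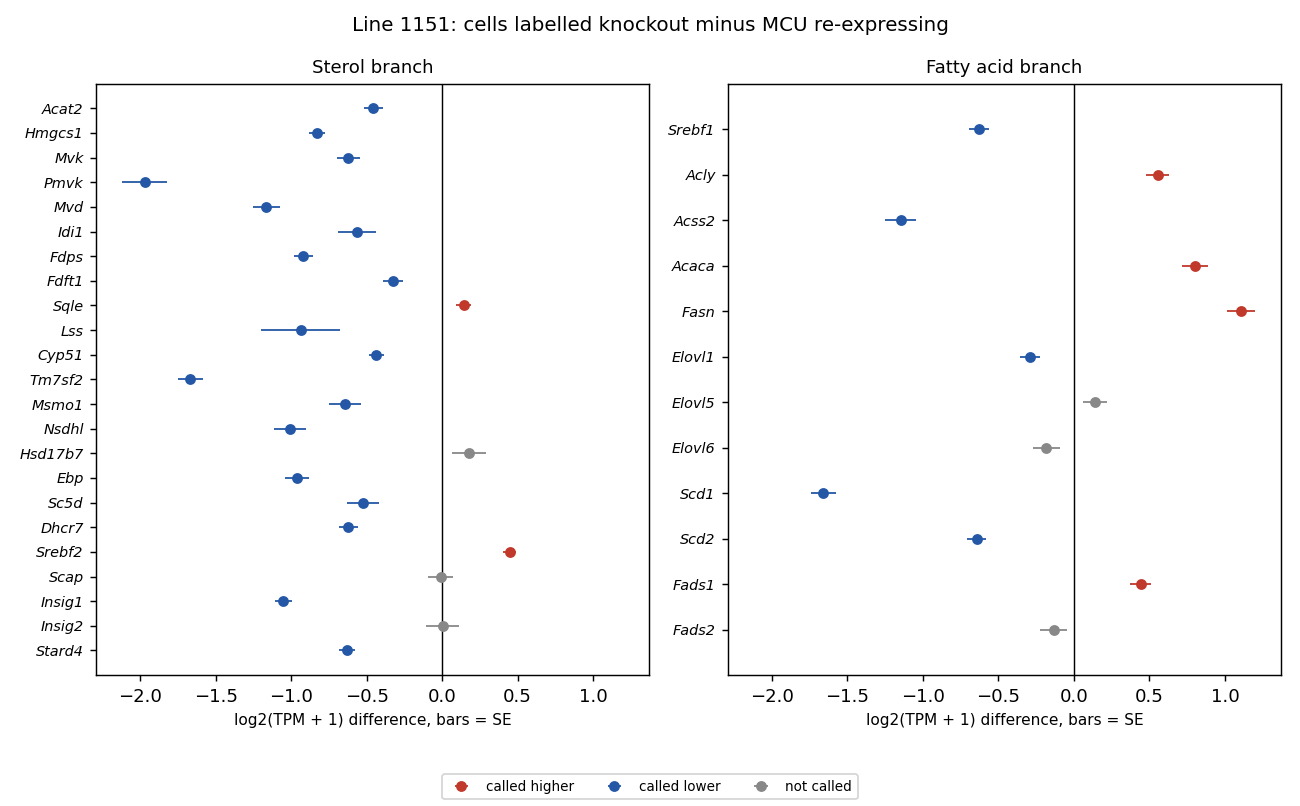
Log2(TPM + 1) difference, knockout minus re-expressing, in line 1151 for 23 sterol genes in pathway order (left) and 12 fatty acid genes (right), with bars of 1 SE from limma. In the sterol panel 18 points are called lower (blue) and 2 higher (red), and in the fatty acid panel 5 lower and 4 higher; Srebf2, Sqle and Fads1 are not called higher under centring per chromosome.

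The mevalonate steps were lower in the knockout cells, Pmvk by the widest margin. Pmvk, phosphomevalonate kinase (chr3:89454541-89469013, plus strand), had 13.6, 18.1 and 21.2 TPM in the knockout libraries, against 75.6, 73.0 and 64.8 TPM in the re-expressing libraries. Every knockout library was below every re-expressing library, and Pmvk fell by the widest margin of any member (log2 difference -1.97, SE 0.15, adjusted p = 5.03e-05). Mvd, the decarboxylase of the next step that yields isopentenyl diphosphate (chr8:122433601-122443422, minus strand), had 29.7, 34.7 and 33.3 TPM in the knockout libraries, against 82.2, 71.9 and 68.8 TPM in the re-expressing libraries. The arms did not overlap, and Mvd fell (log2 difference -1.17, SE 0.09, adjusted p = 5.03e-05). Hmgcs1, the cytosolic HMG-CoA synthase (chr13:119690379-119708260, plus strand), whose promoter above holds the sterol element, had 101, 98.6 and 96.0 TPM in the knockout libraries, against 182, 174 and 171 TPM in the re-expressing libraries. It fell too, again without overlap (log2 difference -0.83, SE 0.05, adjusted p = 1.81e-05). Mvk, mevalonate kinase, averaged 48.3 ± 4.96 TPM in knockout and 74.6 ± 0.219 TPM in re-expressing cells (SD, n = 3 each), and fell as well (log2 difference -0.62, SE 0.08, adjusted p = 4.57e-04). Acat2, the cytosolic thiolase at the head of the route, was called lower at -0.45 on the log2 scale.

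Fdps makes farnesyl diphosphate, from which sterols and prenyl groups both derive (chr3:89093588-89101959, minus strand). It had 320.0, 292 and 315 TPM in the knockout libraries, against 616, 568 and 571 TPM in the re-expressing libraries. It was the most abundant sterol-branch RNA in both arms, and fell in the knockout cells (log2 difference -0.92, SE 0.06, adjusted p = 3.08e-05). Idi1, the isopentenyl diphosphate isomerase upstream of it, and Fdft1, squalene synthase downstream of it, were also lower, by log2 differences of -0.56 and -0.33. Sqle, squalene epoxidase, was the only sterol enzyme called higher, and by little. It had 135, 133 and 129 TPM in the knockout libraries, against 123, 121 and 115 TPM in the re-expressing libraries (log2 difference 0.14, SE 0.05, adjusted p = 0.0457). The arms did not overlap, but this call held under only 4 of 15 alternatives: it was lost in 5 of the 6 fits that leave out 1 library, and the direction turned when each chromosome was centred on its own median.

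Beyond squalene, Tm7sf2, a sterol C14 reductase (chr19:6062821-6068373, minus strand), had 35.7, 32.3 and 40.1 TPM in the knockout libraries, against 114, 121 and 114 TPM in the re-expressing libraries. The highest knockout library lay well under the lowest re-expressing one, and Tm7sf2 fell (log2 difference -1.67, SE 0.08, adjusted p = 7.90e-06). Nsdhl, of the C4 demethylation complex (chrX:72918557-72958514, plus strand), had 41.7, 37.4 and 31.01 TPM in the knockout libraries, against 73.8, 77.3 and 72.2 TPM in the re-expressing libraries. Ebp, the sterol isomerase of the steps after it (chrX:8185329-8193512, minus strand), had 64.2, 61.9 and 52.9 TPM in the knockout libraries, against 121, 117 and 112 TPM in the re-expressing libraries. Both X-linked genes fell without overlap, Nsdhl with a log2 difference of -1.01 (SE 0.11, adjusted p = 2.06e-04) and Ebp with -0.96 (SE 0.08, adjusted p = 7.89e-05). Lss, which closes squalene epoxide to lanosterol (chr10:76531588-76557138, plus strand), had 45.2, 42.0 and 68.8 TPM in the knockout libraries, against 114, 68.3 and 120.5 TPM in the re-expressing libraries. Its arms overlapped, with replicate 2 of the re-expressing cells below replicate 3 of the knockout cells (log2 difference -0.94, SE 0.26, adjusted p = 0.018), and its call was lost in 4 of the 6 fits that leave out 1 library. The other 4 enzymes called lower in this stretch were Cyp51, Msmo1, Sc5d and Dhcr7, at -0.43, -0.64, -0.52 and -0.62 in log2 difference. Hsd17b7, the 3-ketosteroid reductase of the demethylation complex, was not called (0.18, adjusted p = 0.21). In all, 16 of the 18 sterol enzymes were lower.

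The regulators did not move as a block. Srebf2 (chr15:82147181-82205379, plus strand), the gene of SREBP-2, had 193, 188 and 186 TPM in the knockout libraries, against 139.5, 138 and 137 TPM in the re-expressing libraries. Its RNA was higher in every knockout library (log2 difference 0.45, SE 0.05, adjusted p = 1.87e-04), the opposite direction to most of the sterol enzymes. That call was not kept when each chromosome was centred on its own median. Scap (chr9:110333288-110384950, plus strand), the escort protein's gene, had 31.7, 36.8 and 36.01 TPM in the knockout libraries, against 34.9, 32.7 and 37.6 TPM in the re-expressing libraries, and the arms overlapped (log2 difference -0.01, SE 0.08, adjusted p = 0.925). Insig1 (chr5:28071363-28078662, plus strand), an INSIG gene that is itself a known SREBP target, had 89.3, 83.9 and 85.4 TPM in the knockout libraries, against 181, 185 and 172.1 TPM in the re-expressing libraries. It fell without overlap (log2 difference -1.05, SE 0.05, adjusted p = 8.84e-06). Insig2 (chr1:121304353-121332589, minus strand) had 27.6, 22.7 and 28.5 TPM in the knockout libraries, against 23.4, 28.4 and 26.5 TPM in the re-expressing libraries, with overlapping arms (log2 difference 0.00, SE 0.11, adjusted p = 0.972). The Insig1 to Insig2 ratio was therefore 3.31 ± 0.360 in knockout and 6.92 ± 0.707 in re-expressing libraries (SD, n = 3 each). Stard4, a cytosolic sterol carrier, averaged 46.7 ± 1.81 TPM in knockout and 72.7 ± 1.15 TPM in re-expressing cells and fell (log2 difference -0.63, SE 0.05, adjusted p = 7.40e-05).

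**Figure D3:**
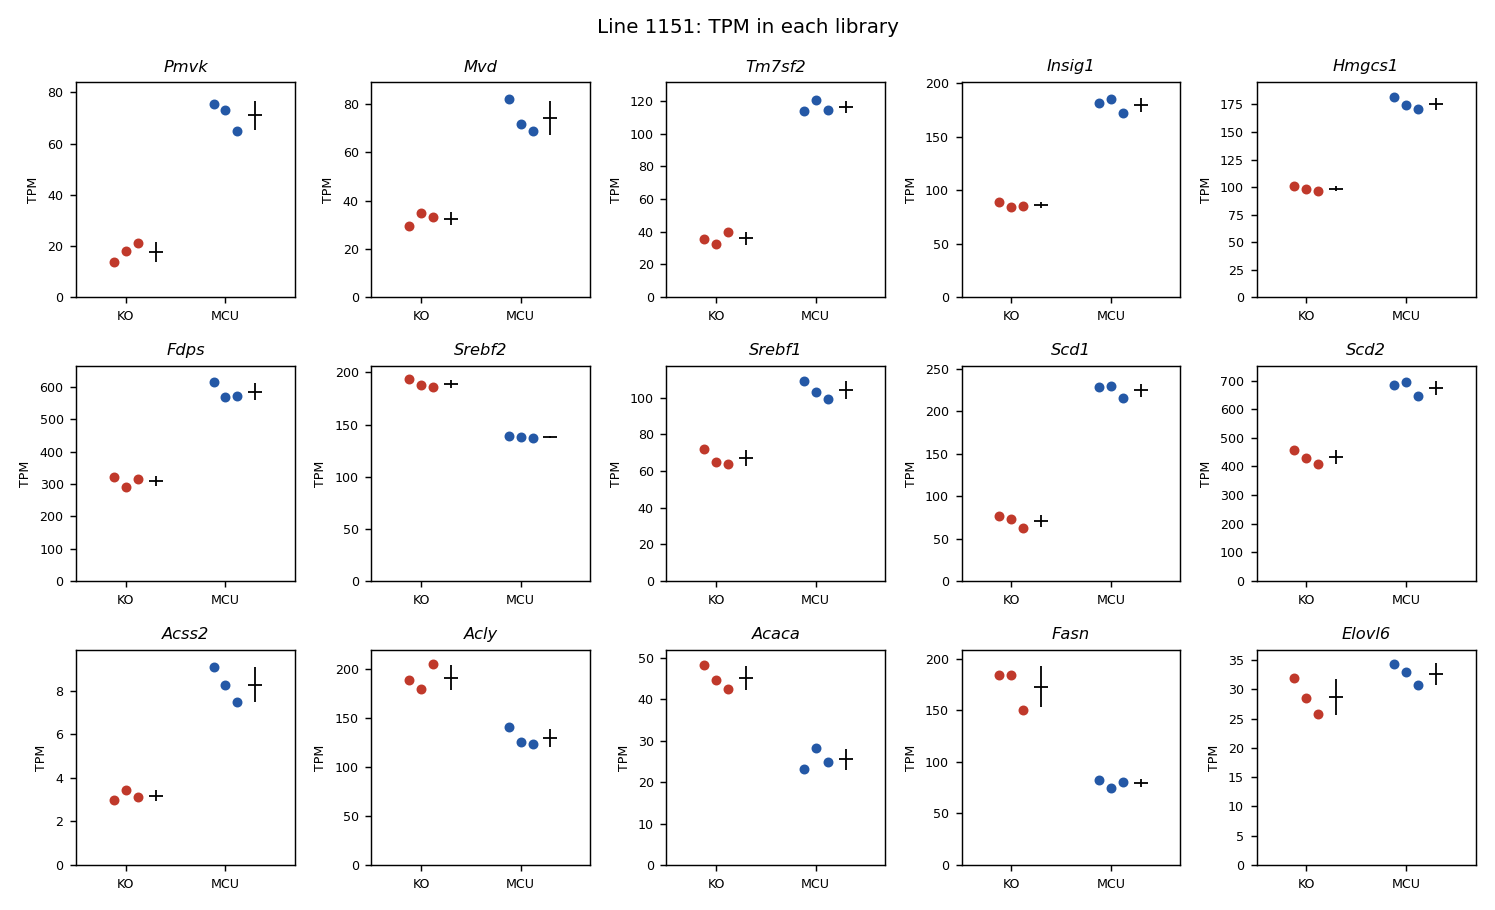
TPM (y axis, from 0) in each of the 3 knockout (KO, red) and 3 re-expressing (MCU, blue) libraries of line 1151 for 15 members, with the mean and SD in black. Srebf2, Acly, Acaca and Fasn are the ones higher in KO (Srebf2 not under centring per chromosome), and the arms of Elovl6 overlap. The 15 are picked members, and others with overlapping arms, such as Lss, Scap and Insig2, are not drawn. Overlap was not counted over all genes, of which 61.0% were called in this comparison.

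The fatty acid branch ran in both directions. Fasn, Acaca and Acly, which lead from citrate to palmitate, were higher in the knockout cells. Fasn, fatty acid synthase (chr11:120805846-120824547, minus strand), had 184, 184 and 150.01 TPM in the knockout libraries, against 82.6, 74.8 and 80.5 TPM in the re-expressing libraries. Acaca, the cytosolic acetyl-CoA carboxylase (chr11:84129672-84401651, plus strand), had 48.2, 44.6 and 42.6 TPM in the knockout libraries, against 23.3, 28.4 and 24.9 TPM in the re-expressing libraries. Acly, ATP-citrate lyase (chr11:100476353-100528000, minus strand), had 189, 179.8 and 205 TPM in the knockout libraries, against 141, 126 and 124 TPM in the re-expressing libraries. None of the 3 overlapped, and limma called Fasn higher by 1.11 (SE 0.09, adjusted p = 7.29e-05), Acaca by 0.80 (SE 0.09, adjusted p = 2.51e-04) and Acly by 0.55 (SE 0.08, adjusted p = 7.10e-04). Acss2, which makes the same acetyl-CoA from acetate (chr2:155517948-155585724, plus strand), went the other way, with 2.96, 3.46 and 3.13 TPM in the knockout libraries, against 9.10, 8.25 and 7.48 TPM in the re-expressing libraries (log2 difference -1.15, SE 0.10, adjusted p = 9.03e-05). Summed over the 5 synthesis genes (Acly, Acss2, Acaca, Acacb and Fasn), RNA was 413 ± 11.9 TPM in knockout and 244 ± 10.9 TPM in re-expressing libraries (SD, n = 3 each).

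Scd1, Scd2 and Srebf1 were lower. Scd1, a stearoyl-CoA desaturase (chr19:44394455-44407879, minus strand), had 76.3, 73.7 and 62.2 TPM in the knockout libraries, against 229, 229.5 and 215 TPM in the re-expressing libraries. Its neighbour Scd2, another stearoyl-CoA desaturase (chr19:44293674-44306864, plus strand), had 457, 431 and 408 TPM in the knockout libraries, against 684, 694 and 647 TPM in the re-expressing libraries. Both fell without overlap, Scd1 further than Scd2 (log2 differences -1.66 and -0.64, SE 0.08 and 0.06, adjusted p = 8.84e-06 and 1.66e-04 in limma). The Scd2 to Scd1 ratio was 6.13 ± 0.379 in knockout and 3.00 ± 0.0201 in re-expressing libraries (SD, n = 3 each), with no overlap. Srebf1 (chr11:60199089-60222581, minus strand), the gene of SREBP-1, had 71.8, 64.7 and 64.1 TPM in the knockout libraries, against 109, 103 and 99.4 TPM in the re-expressing libraries. It fell (log2 difference -0.63, SE 0.07, adjusted p = 2.14e-04), so the 2 SREBP genes moved in opposite directions, except under centring per chromosome, where Srebf2 was level.

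Among the elongases, Elovl1 was called lower (-0.29), while Elovl5 (0.14, adjusted p = 0.165) and Elovl6 (-0.18, adjusted p = 0.117) were not called. Elovl6, which extends palmitate, averaged 28.8 ± 3.06 TPM in knockout and 32.7 ± 1.86 TPM in re-expressing cells, with overlapping arms. Fads1, the delta-5 desaturase of polyunsaturated fats, was called higher (0.44) and its neighbour Fads2, the delta-6 desaturase, was not called (-0.13, adjusted p = 0.23). Over the 7 elongation and desaturation genes the summed level was 987 ± 64.1 TPM in knockout and 1384 ± 48.5 TPM in re-expressing libraries (SD, n = 3 each).

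Whole chromosomes shifted between the arms of line 1151, and some members sit on them. The median log2 difference over all tested genes was 0.52 on chromosome 19 (416 genes) and 0.45 on chromosome 15 (452 genes), against 0.05 overall. It was -0.28 on chromosome 8 (626 genes). Chromosome 19 carries Tm7sf2, Scd1, Scd2, Fads1 and Fads2, chromosome 15 carries Srebf2 and Sqle, and chromosome 8 carries Mvd and Msmo1. With each chromosome centred on its own median, an alternative chosen after seeing the data, Srebf2 stood at -0.000369 (adjusted p = 0.996) and Fads1 at -0.0788, and neither was called. Sqle turned to -0.30 (adjusted p = 0.0016), which left Fasn, Acaca and Acly as the 3 members called higher. Fads2 stood at -0.65 and was then called lower. Other called members kept their call while their value moved: Msmo1 stood at -0.36 centred, against -0.64 as reported, Scd2 at -1.16, against -0.64, Acat2 at -0.77, against -0.45, and Mvd at -0.88, against -1.17. Tm7sf2 (-2.187) and Scd1 (-2.179) then fell further than Pmvk (-1.945), which no longer had the widest margin. Transcript length also moved with the contrast, with Spearman's rho of 0.22 over 11059 protein-coding genes and 0.40 over the 35 members, and its part was not tested.

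The 1151 arms are 1 cell population each, and their libraries carry no spread between populations. With the spread taken from the 2838 clones over group means, no member was called in either direction, against 2.15% of 12458 genes called. In that limma fit 7 of 35 members had an unadjusted p under 0.05, beside 2039 of 12458 genes, and the lowest adjusted p was 0.0524. Without replicate 3 of clone 22, Tm7sf2 was called lower in it (adjusted p = 0.0451), against 2.45% of 12449 genes. The 29 calls of line 1151 rest on the spread between libraries of these populations alone.

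Genes next to the pathways moved in both directions in line 1151. In the list for sterol transport, storage and sensing, 3 of 12 tested genes were called higher and 5 lower (median -0.18). For this list and the next 4, the share over all genes was 34.0% higher and 27.0% lower. The 3 include Nr1h3, the gene of the oxysterol receptor LXR alpha, which passed the filter through the knockout libraries alone, at 4.82 ± 0.347 TPM in knockout and 0.327 ± 0.164 TPM in re-expressing cells (SD, n = 3 each). Lipa, the lysosomal acid lipase that frees cholesterol from its esters, was 72.8 ± 3.63 TPM in knockout and 163 ± 13.4 TPM in re-expressing cells (log2 difference -1.15, SE 0.07, adjusted p = 2.34e-05). Stard3, a late-endosomal sterol carrier, was 18.03 ± 2.35 and 39.8 ± 1.49 TPM in the same order of groups, a log2 difference of -1.11 (adjusted p = 9.69e-05). Both the lipase and the carrier gene were thus lower.

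In the list for processing and turnover of SREBP and INSIG, none of 9 tested genes was higher and 4 were lower. Lpin1, a phosphatidate phosphatase that also restrains SREBP, was called lower at -1.24, and Erlin2, part of the complex that degrades sterol regulators, at -0.86. The isoprenoid list beside the sterols had 3 of 9 higher and 3 lower. There Ggps1, the geranylgeranyl diphosphate synthase that draws on Fdps product, was called higher (0.53) and Fnta, the farnesyltransferase alpha subunit, lower (-0.56), as was the mitochondrial thiolase Acat1 (-0.55).

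In the list for further elongation, acyl activation and glycerolipid synthesis, 6 of 21 were higher and 9 lower. Agpat2, an acyltransferase of phosphatidate synthesis, was 28.5 ± 3.38 TPM in knockout and 97.2 ± 1.78 TPM in re-expressing cells (log2 difference -1.74, SE 0.09, adjusted p = 7.54e-06). Slc25a1, the mitochondrial citrate carrier that supplies Acly, was 94.7 ± 3.40 TPM in knockout and 209.6 ± 4.39 TPM in re-expressing cells (log2 difference -1.14, SE 0.05, adjusted p = 5.25e-06), opposite in direction to Acly. Elovl4 (2.55) and the brain-type carnitine acyltransferase gene Cpt1c (2.71) were the 2 widest rises in these lists, and both passed the filter through the knockout libraries alone. Cpt1c had 5.58, 5.57 and 7.23 TPM in the knockout libraries, against 0.0439, 0.209 and 0.00 TPM in the re-expressing libraries. In the fatty acid oxidation list, 4 of 17 were higher and 10 lower. The lower genes included the mitochondrial beta-oxidation enzymes Decr1 (-1.03) and Acaa2 (-0.95).

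In line 2838 the members did not separate knockout from wild-type clones. Over clone means, 2 against 2, limma called none of the 35 members, beside 0.0763% of 11795 genes. An unadjusted p under 0.05 was found for 2 members, beside 662 of the 11795 genes. The members' median log2 difference was 0.11, against 0.07 over all genes, and -0.06 without replicate 3 of clone 22, against -0.02. The lowest adjusted p was 0.765, for Insig2. Without replicate 3 of clone 22 none was called either, beside 0.00% of 11767 genes, with 0 at an unadjusted p under 0.05, beside 748 genes. By the rule that a gene be called in the same direction in all 4 pairs of a knockout with a wild-type clone, again no member passed, beside 1.01% of genes. Without that library 1 member did, the elongase Elovl5 (lower), beside 3.88% of genes. Summed over the 18 sterol enzymes, RNA was 3769 ± 111 TPM in clone 42 and 3640 ± 78.5 TPM in clone 17, against 3576 ± 259 TPM in clone 22 and 3456 ± 343 TPM in clone 15 (SD, n = 3 each). Within clone 22 the sums were 3858, 3520 and 3350 TPM, the last in replicate 3.

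Insig2 had 74.8, 59.0 and 60.3 TPM in clone 42 and 65.7, 60.5 and 73.8 TPM in clone 17, against 54.4, 50.4 and 17.3 TPM in clone 22 and 42.9, 58.7 and 48.0 TPM in clone 15. Its lowest knockout value, 59.0 TPM, lay just above its highest wild-type value, 58.7 TPM. Its clone-mean difference was 0.61 (SE 0.23). The lowest wild-type value is that of the library that stands apart, and without it the difference was 0.36 (SE 0.15). Without that library Fdps did not overlap either, at 1171 TPM or more in knockout and 1165 TPM or less in wild-type libraries. Insig1 had 269, 239.6 and 287 TPM in clone 42 and 151, 162 and 156 TPM in clone 17, against 161, 162 and 88.3 TPM in clone 22 and 224, 207 and 219.5 TPM in clone 15. Clone 42 was above both wild-type clones while clone 17 lay below clone 15, so the clone-mean difference of 0.26, or 0.12 without clone 22 replicate 3, averages opposite directions. Ebp had 168, 141 and 143 TPM in clone 42 and 108, 104 and 109 TPM in clone 17, against 119.5, 94.8 and 87.5 TPM in clone 22 and 55.3, 90.6 and 77.0 TPM in clone 15. Clone 42 was above all wild-type libraries, and clone 17 overlapped clone 22.

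Acat2 had 168, 163 and 154 TPM in clone 42 and 83.7, 79.5 and 80.3 TPM in clone 17, against 169, 147 and 129 TPM in clone 22 and 172.3, 119 and 155 TPM in clone 15. Only clone 17 was low, below every other library. Mvd had 77.1, 83.8 and 78.8 TPM in clone 42 and 133, 131 and 130.1 TPM in clone 17, against 151, 140.3 and 146 TPM in clone 22 and 100.2, 109 and 125 TPM in clone 15. Here only clone 42 was low, and clone 17 fell between the wild-type clones. Sqle had 250.3, 236 and 242 TPM in clone 42 and 170.2, 179 and 178 TPM in clone 17, against 198, 180.5 and 109 TPM in clone 22 and 213, 179 and 204 TPM in clone 15. Clone 42 was the highest clone. Clone 17 lay above replicate 3 of clone 22 and below the other 5 wild-type libraries.

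Fasn, in the fatty acid branch, had 96.0, 80.0 and 63.2 TPM in clone 42 and 54.1, 47.0 and 54.4 TPM in clone 17, against 102, 88.7 and 85.2 TPM in clone 22 and 122, 74.8 and 93.9 TPM in clone 15. Clone 17 was below all wild-type libraries and clone 42 overlapped them, with a clone-mean difference of -0.54 (SE 0.24, adjusted p = 0.885), or -0.57 without clone 22 replicate 3. In line 1151 the difference was 1.11. Acss2 had 16.7, 17.5 and 12.2 TPM in clone 42 and 38.1, 40.3 and 34.4 TPM in clone 17, against 21.9, 23.6 and 9.60 TPM in clone 22 and 20.98, 20.8 and 21.8 TPM in clone 15. Clone 17 was above and clone 42 below the wild-type clones, apart from clone 22 replicate 3. Elovl5 had 142, 134 and 129 TPM in clone 42 and 118, 122 and 111 TPM in clone 17, against 166, 163 and 81.3 TPM in clone 22 and 150.3, 164 and 173 TPM in clone 15. Both knockout clones were below every wild-type library except that same replicate 3.

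Fads2 had 186, 179 and 174 TPM in clone 42 and 118, 116 and 117 TPM in clone 17, against 143, 129 and 82.5 TPM in clone 22 and 151, 116 and 149 TPM in clone 15. Clone 42 was above every other library, and clone 17 reached only the low end of the wild-type range. Scd1 had 388, 337 and 305 TPM in clone 42 and 567, 593 and 554 TPM in clone 17, against 626, 565 and 231 TPM in clone 22 and 559.8, 508 and 590.3 TPM in clone 15. Clone 42 was below clone 17 and clone 15 in every library, and replicate 3 of clone 22 was lower still. Scd2 had 1445, 1285 and 1210.4 TPM in clone 42 and 1490.3, 1538 and 1471 TPM in clone 17, against 1557, 1457 and 534 TPM in clone 22 and 1493, 1432 and 1612 TPM in clone 15. Both knockout clones overlapped clone 15.

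Lss had 65.5, 71.9 and 68.7 TPM in clone 42 and 89.5, 77.5 and 68.5 TPM in clone 17, against 80.9, 70.3 and 28.9 TPM in clone 22 and 60.3, 67.2 and 69.5 TPM in clone 15. Stard4 had 95.6, 89.0 and 84.3 TPM in clone 42 and 74.1, 77.4 and 70.2 TPM in clone 17, against 84.7, 80.8 and 27.4 TPM in clone 22 and 79.8, 68.8 and 86.1 TPM in clone 15. Elovl1 had 105, 93.1 and 104 TPM in clone 42 and 104, 108 and 99.5 TPM in clone 17, against 90.1, 87.1 and 86.4 TPM in clone 22 and 93.9, 74.1 and 78.2 TPM in clone 15. Their clone-mean differences of 0.28, 0.28 and 0.26 were not called. Without clone 22 replicate 3 they were 0.06, 0.02 and 0.26. Clone 42 and the wild-type clones overlapped in Lss and Stard4, and for Elovl1 clone 17 lay above all wild-type libraries. Acly had 124, 129.7 and 103 TPM in clone 42 and 92.3, 90.5 and 93.5 TPM in clone 17, against 122, 113 and 48.3 TPM in clone 22 and 102, 109 and 128 TPM in clone 15. Acaca had 43.6, 36.9 and 28.7 TPM in clone 42 and 26.1, 29.3 and 27.5 TPM in clone 17, against 44.9, 35.3 and 7.56 TPM in clone 22 and 21.4, 28.0 and 47.3 TPM in clone 15. Clone 42 overlapped the wild-type clones in both, with clone-mean differences of 0.07 and 0.23, not called either. Without clone 22 replicate 3 both signs turned, to -0.14 and -0.14, and clone 17 was then below every wild-type library in Acly.

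The regulators' clone-mean differences depended on the library that stands apart. Srebf2 had 203, 192 and 180.2 TPM in clone 42 and 268, 264 and 262 TPM in clone 17, against 258, 261 and 131 TPM in clone 22 and 239, 247 and 258 TPM in clone 15. Clone 42 was below clone 17 and clone 15 in every library, and the clone-mean difference was -0.01, or -0.17 without clone 22 replicate 3. Srebf1 had 126, 114 and 120.1 TPM in clone 42 and 123, 122 and 129.9 TPM in clone 17, against 137, 130.1 and 66.5 TPM in clone 22 and 131, 129 and 136 TPM in clone 15, a difference of 0.05, or -0.12 without it. Scap had 29.0, 27.3 and 35.7 TPM in clone 42 and 27.4, 34.1 and 29.2 TPM in clone 17, against 36.3, 38.4 and 16.3 TPM in clone 22 and 26.3, 33.5 and 33.5 TPM in clone 15, a difference of 0.03, or -0.16 without it. None of the 3 was called either way, and the low value of clone 22 is its replicate 3 in all 3. In the 5 neighbouring lists, no gene was called over clone means. By the rule of all 4 pairs Acsl5 alone was higher, beside 1.01% of genes. It averaged 297 ± 9.43 TPM in clone 42 and 309 ± 6.96 TPM in clone 17. In clone 22 it averaged 198 ± 29.4 TPM, and in clone 15 183 ± 3.98 TPM (SD, n = 3 each). Without clone 22 replicate 3, Nus1 (higher), Lpin1 and Hacd3 (both lower) also passed, beside 3.88% of genes.

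**Figure D4:**
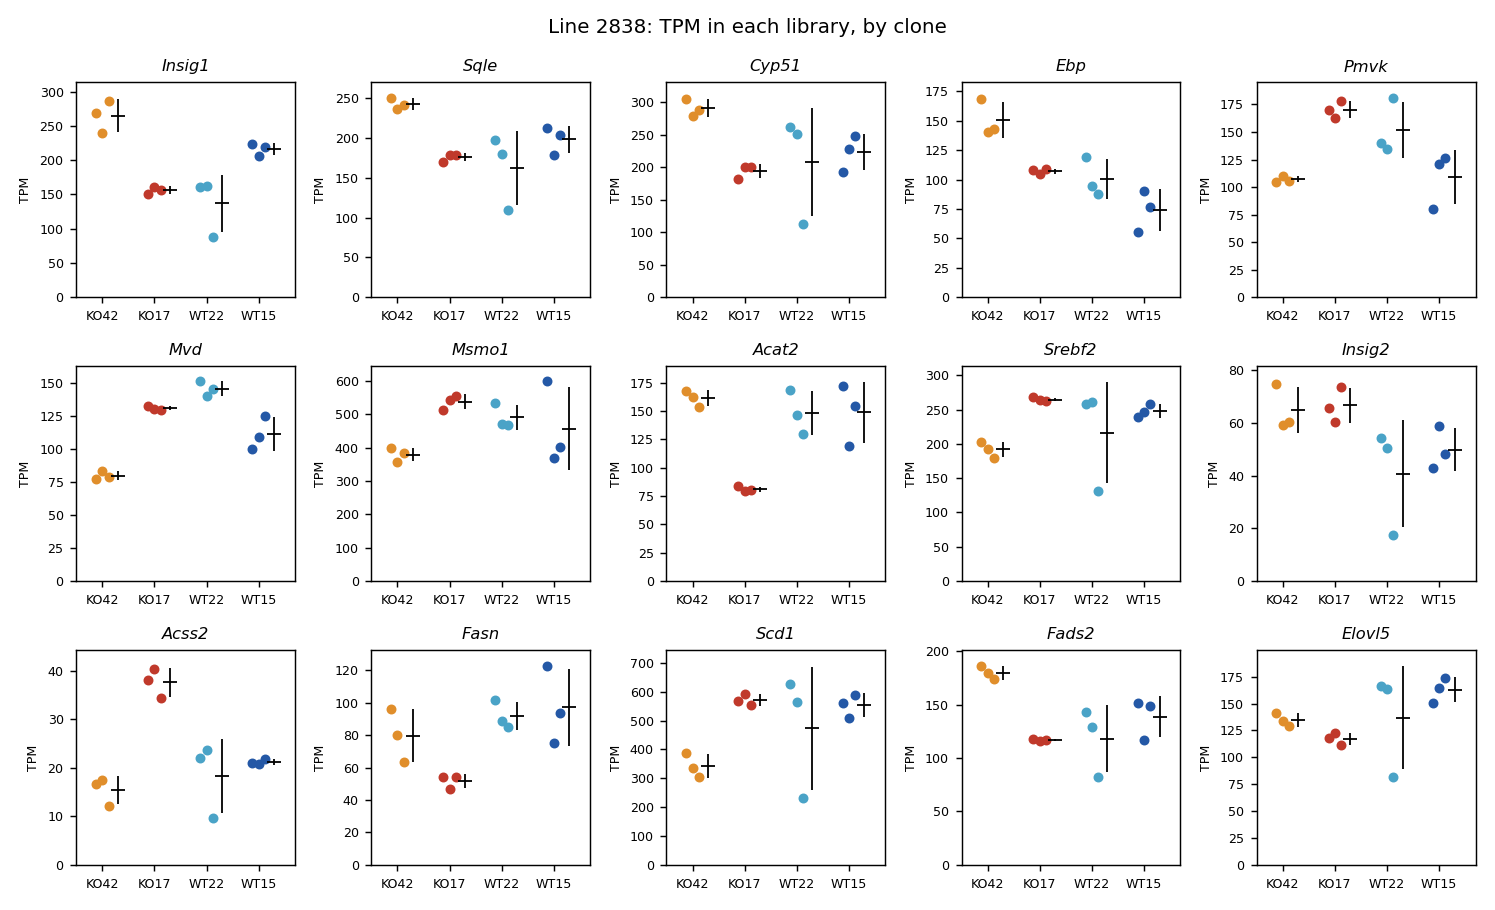
TPM (y axis, from 0) in each library of line 2838 for 15 members, by clone (KO42 and KO17, then WT22 and WT15), with the mean and SD in black. Insig1, Fads2, Ebp and Sqle are highest in KO42, and Acat2 and Fasn are lowest in KO17. A low WT22 point recurs for most of the longer genes but not for Fasn, and also for Insig1, Insig2 and Elovl5.

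Taken clone by clone, each knockout clone differed from each wild-type clone in 3 of 35 members, a share near that of all genes. Clone 42 against clone 22 (10.3% of genes called) had Insig1 higher (1.00, adjusted p = 0.00757), Fads2 higher (0.64, adjusted p = 0.0449) and Mvd lower (-0.86, adjusted p = 3.46e-04). Clone 42 against clone 15 (12.3%) had Ebp higher (1.03), Mvk higher (0.44) and Mvd lower (-0.47). Clone 17 against clone 22 (6.49%) had Acss2 higher (1.09), and Acat2 (-0.85) and Fasn (-0.81) lower. Clone 17 against clone 15 (10.7%) had Pmvk higher (0.66), and Acat2 (-0.85) and Fasn (-0.87) lower. Mvd was thus lower in clone 42, and Acat2 and Fasn lower in clone 17, against both wild-type clones. These pairs share clones and one estimate of spread, which replicate 3 of clone 22 widens. In the pairs with clone 22 the values without that library were 0.71 for Insig1, 0.40 for Fads2 and -0.86 for Mvd in clone 42, and 0.70 for Acss2, -0.95 for Acat2 and -0.86 for Fasn in clone 17. With each chromosome centred on its own median, Mvd (-0.32) and Mvk (0.37) in clone 42 and Pmvk (0.66) and Acat2 (-0.46) in clone 17 were not called against clone 15. Without that library the counts were 9, 13, 7 and 14 members, beside 27.1%, 35.2%, 20.4% and 32.8% of genes, in the same order of pairs. The wild-type clones differed from each other in no member (22 against 15, 1.92% of genes called). In limma 6 members had an unadjusted p under 0.05, beside 1770 of 11795 genes. Without that library the wild-type clones differed in 2 members, Insig1 lower (-0.42) and Mvd higher (0.39) in clone 22, beside 6.86% of genes.

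The 2 knockout clones also differed from each other. Clone 42 against clone 17 had 7 of 35 called, 3 higher and 4 lower, beside 17.2% of genes called (8.23% higher, 8.99% lower), so the members' share is near that of all genes. Over all genes, too, more were called in this pair than in the 4 pairs of a knockout with a wild-type clone. Acat2 (log2 difference 0.98, SE 0.14, adjusted p = 7.80e-04), Insig1 (log2 difference 0.76, SE 0.19, adjusted p = 0.0207) and Fads2 (log2 difference 0.62, SE 0.18, adjusted p = 0.0357) were higher in clone 42. Acss2 (log2 difference -1.24, SE 0.27, adjusted p = 0.00964), Mvd (log2 difference -0.71, SE 0.10, adjusted p = 7.46e-04), Pmvk (log2 difference -0.67, SE 0.17, adjusted p = 0.0182) and Msmo1 (log2 difference -0.50, SE 0.16, adjusted p = 0.0472) were lower in clone 42. With each chromosome centred on its own median, 4 of the 7 were not called: Acat2 (0.27), Mvd (-0.36), Pmvk (-0.45) and Msmo1 (-0.15).

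These calls went both ways in both branches. At the head of the sterol route Acat2 was higher while Pmvk and Mvd, later steps of the same route, were lower. Acat2, Pmvk and Mvd were not called under centring per chromosome. Pmvk had 105, 110.0 and 106 TPM in clone 42, against 169.8, 163 and 178 TPM in clone 17. Msmo1, the sterol C4 methyl oxidase, had 398, 358 and 383 TPM in clone 42, against 512, 544 and 556 TPM in clone 17. Neither gene's libraries overlapped between the clones. Mcu RNA, at -3.27 (adjusted p = 1.50e-06), also differed between them, and its part in the other differences was not tested.

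Without clone 22 replicate 3, a library of neither clone that enters only through the shared spread, 20 members were called between clones 42 and 17, 14 higher and 6 lower, beside 41.5% of 11767 genes (20.1% higher, 21.4% lower). The added higher genes were Hmgcs1, Mvk, Idi1, Sqle, Cyp51, Ebp and Stard4 in the sterol branch and Acly, Fasn, Fads1 and Elovl5 in the fatty acid branch. Their log2 differences were 0.20 to 0.60, largest for Idi1 (0.60, 289, 265 and 270.2 TPM in clone 42, against 172.4, 182 and 187 TPM in clone 17). Cyp51, the lanosterol demethylase, had 305, 279 and 289 TPM in clone 42, against 181, 201 and 201 TPM in clone 17, with no overlap. The added lower genes were Srebf2 (-0.46) and Scd1 (-0.74). Srebf2 RNA was thus lower in clone 42, as were Pmvk, Mvd and Msmo1, while those 7 sterol-branch genes, Acat2 and Insig1 were higher. Centring per chromosome was not run together with leaving out that library.

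**Figure D5:**
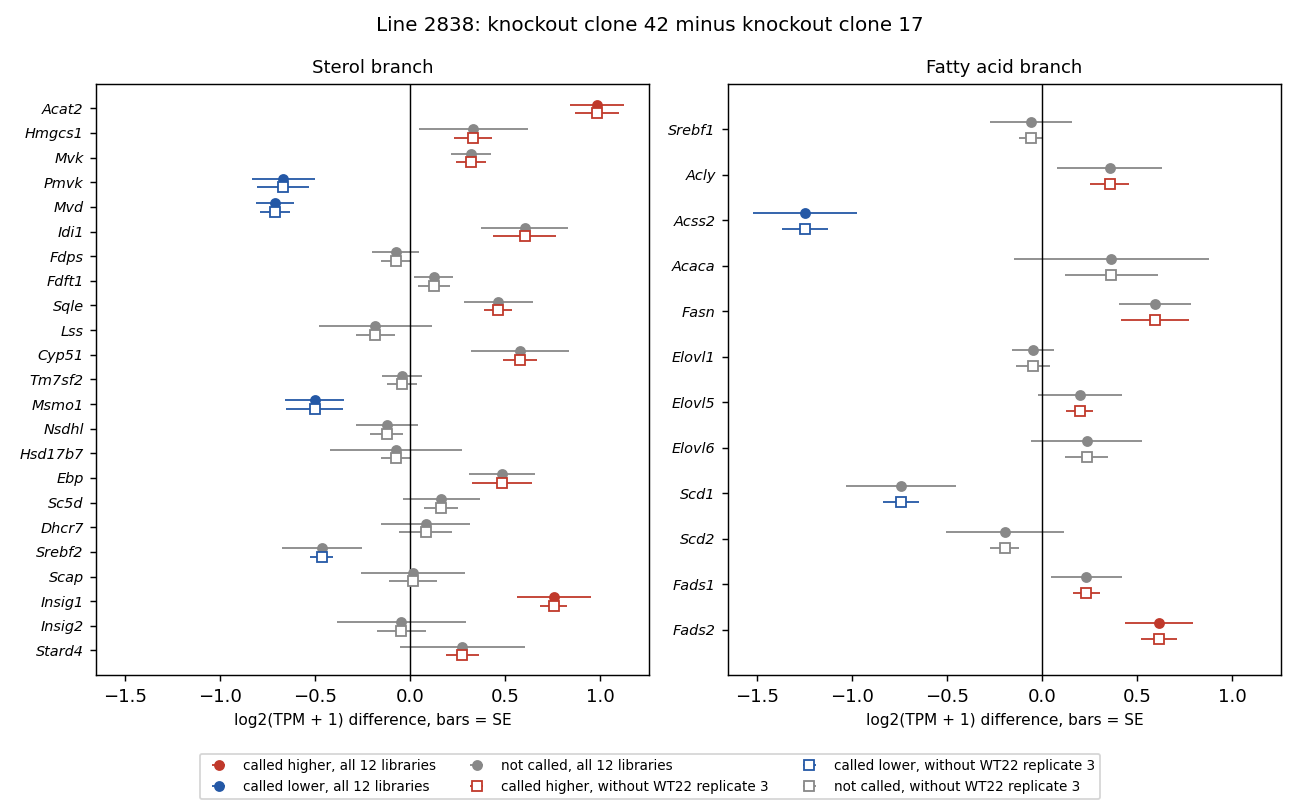
Log2(TPM + 1) difference, clone 42 minus clone 17, for 23 sterol genes (left) and 12 fatty acid genes (right), with bars of 1 SE from limma over all 12 libraries of line 2838 (filled circles) and without clone 22 replicate 3 (open squares). The estimates are the same, the bars of most genes are shorter without that library, and 20 genes instead of 7 are called.

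The effect of the knockout label was compared between the lines over group means. No member was called in limma for 1151 minus 2838, beside 1.10% of 12458 genes, and the lowest adjusted p was 0.0926. An unadjusted p under 0.05 was found for 8 of 35 members, beside 1738 of 12458 genes. Without replicate 3 of clone 22, 0 members were called, beside 1.27% of 12449 genes. In that fit 9 members had an unadjusted p under 0.05, beside 2356 of the 12449 genes. The widest difference was Pmvk (-2.06, SE 0.55), from -1.97 in line 1151 and 0.09 in line 2838. Tm7sf2 differed by -1.68 (SE 0.25), from -1.67 and 0.01 in the same order of lines, and Fasn by 1.65 (SE 0.42), from 1.11 and -0.54. With 2 knockout and 2 wild-type clones in line 2838 and 1 population per arm in line 1151, a p over the threshold does not show that the effects were alike. Of the 35 differences 28 were negative, with a median of -0.61, against -0.01 over all genes. Without replicate 3 of clone 22, 25 were negative, with a median of -0.51, against 0.09.

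The level of several members differed by line, side by side and untested since line and batch cannot be told apart. Scd1 averaged 70.7 ± 7.53 and 225 ± 7.99 TPM in the knockout and re-expressing cells of line 1151. In line 2838 it averaged 343 ± 42.2 TPM in clone 42, 571 ± 19.8 TPM in clone 17, 474 ± 213 TPM in clone 22 and 553 ± 41.4 TPM in clone 15 (SD, n = 3 each), and 595 TPM in clone 22 without replicate 3. Acss2 stood under 10 TPM in every library of line 1151, and in line 2838 only in clone 22 replicate 3. Fdps averaged 1192 ± 19.3 TPM in clone 42, 1257 ± 52.8 TPM in clone 17, 1198 ± 203 TPM in clone 22 and 1043 ± 108 TPM in clone 15, more than in either arm of line 1151.

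Some members share sequence with other genes, and the notes do not say whether reads were assigned by strand. Of the 31-base stretches in each member's longest transcripts, 56.8% of Acaca's are found in another gene (the gene model Gm5182 shares the most), 50.5% of Acat2's are found in another gene (mostly its paralogue Acat3), and 36.8% of Fdft1's and 32.0% of Idi1's are shared, so the split of reads is less certain for these 4. Scd1 and Scd2 share 8.30% and 6.86% with other genes, chiefly Scd3. Acss2 shares 10.1%, chiefly with the antisense gene Acss2os.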

How the data were processed

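The deposited table holds TPM per gene and library, which the authors made with Salmon on mouse build mm10, per the submitters' processing notes. Versions, the annotation, strand handling and read counts are not given in the sources used here, so depth is unknown and no count test was run. Libraries were grouped by the labels. From the TPM, log2(TPM + 1) was tested with limma 3.58.1 (R 4.3.3, trend on), keeping genes with at least 1 TPM in 3 libraries of a fit, with Benjamini-Hochberg adjustment over all genes kept and a threshold of 0.05. Line 1151 was fitted 3 against 3, line 2838 over clone means (2 against 2) and over each pair of clones from 1 fit of 12 libraries. The fits were run on simulated data with known changes. Those data held no library that loses long transcripts and no shift of whole chromosomes, so they do not cover these features. The precision of each value is the spread of 3 libraries; scaling by TPM makes every level relative to the rest of its library.

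Positions and transcript lengths came from the mm10 annotation of GENCODE M21, in which 95.4% of the 35642 symbols were found; promoters are RefSeq's on GRCm38.p6. The members and lists were chosen with earlier results of these data known. By rule, values in every library are given for the 8 sterol and 6 fatty acid members with the largest called differences in line 1151, for those with the largest clone-mean differences in line 2838, and for the regulators, Acly, Acaca, Fasn, Scd1 and Scd2; up to 3 called genes per neighbouring list are named. Some items are not reported here. Members named in single clone pairs were chosen after their values were seen. The alternatives were a pseudocount of 0.1, no filter or a floor of 5 TPM on the mean, quantile and median-of-ratios scaling, leaving out genes of the mitochondrial genome, no variance trend, a replicate block, leaving out each library or clone and, added after seeing the data, centring per chromosome and pair counts without replicate 3 of clone 22.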

Additional observations from a re-analysis of the deposited data

Results flagged for a closer look

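The 2 knockout clones of line 2838 differed from each other in 7 members. Each had an adjusted p under 0.05 in limma for clone 42 minus clone 17. These are 2 single clones, so a clone difference cannot be told apart from a difference in knockout effect. The log2 differences were positive for Acat2 (0.98), Insig1 (0.76) and Fads2 (0.62), and negative for Acss2 (-1.24), Mvd (-0.71), Pmvk (-0.67) and Msmo1 (-0.50). With each chromosome centred on its own median, Acat2, Mvd, Pmvk and Msmo1 were not called. Over all genes 17.2% were called in this comparison, which is near the members' share.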

How the results depend on the processing

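In line 1151, 25 of the 29 member calls held under all 15 alternatives that keep the 1151 spread; the exceptions were Fads1, Srebf2, Lss and Sqle. The 6 higher and 23 lower became 3 higher with centring per chromosome, and 0 and 0 with the spread between the 2838 clones. Of all 11630 genes, centring per chromosome called 3362 higher and 3388 lower. Leaving out 1 library gave 5 to 7 higher and 22 to 23 lower. Over all genes it gave 3159 to 3745 higher and 2487 to 3248 lower, of 11186 to 11348 tested. Signs turned for Sqle (-0.305), Fads1 (-0.0788), Srebf2 (-0.000369) and Scap (0.0419) with centring per chromosome, for Insig2 with median-of-ratios (-0.0667) and quantile scaling (-0.0580), and, leaving out 1 library, for Insig2 (-0.0682 to 0.104) and Scap (-0.0572 to 0.0540).

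In line 2838, the 0 members called over clone means became 1 without clone 17 and 2 without clone 42, and stayed 0 without any 1 library. The 0 called in all clone pairs became 1 without clone 17, 2 without clone 42 and 3 without clone 22, with 0 to 1 when leaving out 1 library. Over all genes, 58 of 11795 passed that rule as higher and 61 as lower with all clones. These became 218 and 218 of 11640 without clone 17, and 121 and 123 of 11609 without clone 42. Without clone 22 they became 668 and 635 of 11662. Clone 17 against clone 15 had 3, and 5 with median-of-ratios scaling, 6 with quantile scaling, 12 without clone 22 and 1 to 14 leaving out 1 library. Clone 17 against clone 22 had 3, and 1 to 7. Clone 42 against clone 15 had 3, 12 without clone 22, and 1 to 13. Clone 42 against clone 22 had 3, 5 with quantile scaling, 5 without clone 15, and 2 to 9. Clone 42 against clone 17 had 7, 11 with quantile scaling, 19 without clone 22, and 3 to 20. Calls over all genes also rose without clone 22. Of 11662 genes, 1850 were then higher and 1722 lower for clone 17 against clone 15. They were 1912 and 1959 for clone 42 against clone 15, and 2245 and 2374 for clone 42 against clone 17. With all clones they were 611 and 652, 716 and 734, and 971 and 1060 of 11795, in the same order of pairs. Clone 22 against clone 15 had 0, and 1 each with median-of-ratios scaling, quantile scaling and centring per chromosome, and 0 to 2. The difference of effects between lines had 0, 1 with centring per chromosome, and 0 leaving out any 1 library. Of the members called in a pair, centring per chromosome lost 4 of 7 for clone 42 against clone 17 and 2 of 3 for each knockout clone against clone 15; median-of-ratios scaling lost 2 of 7 for clone 42 against clone 17, and against clone 15 lost 2 of 3 for clone 42 and 1 of 3 for clone 17. Quantile scaling lost 1 of 3 for clone 42 against clone 15. Of all 11795 genes, quantile scaling called 912 higher and 1001 lower for clone 17 against clone 15. It called 942 and 1142 for clone 42 against clone 22, and 1467 and 1496 for clone 42 against clone 17. The upper ends of the ranges for pairs came without clone 22 replicate 3, for which the shares over all genes are given above. The cause was not tested.

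Replicate numbers did not pair the libraries: same-numbered deviations correlated at -0.03, -0.14 and -0.15 in line 1151 and between -0.15 and 0.20 in line 2838. With the replicate block, line 1151 had 5 higher and 23 lower, clone 42 against clone 17 had 8, clone 42 against clone 22 had 2, and no other count moved.

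Unknown depth, 1 clone or population per genotype sample and poly(A) RNA limit these values; low members such as Acacb could not be tested.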
